A study of Mus musculus with 6 samples.

Results

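The S100 genes encode small calcium-binding proteins, and 10 of them were followed here across 6 RNA-seq libraries of mouse femur. They were S100a8 and S100a9, listed as neutrophil genes, S100a4, S100a6, S100a10, S100a11, S100a13 and S100a16, listed as mesenchymal genes, and S100a1 and S100b, listed as cartilage and muscle genes. They were found by symbol among 22824 rows per library, in which 17 S100 genes had a row. All 10 passed the filter for testing, which asked for at least 1 FPKM in at least 3 libraries and left 12177 genes.

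Each S100 protein carries a pair of EF-hand loops, the helix-loop-helix motif that binds calcium, and most act as dimers that change shape with calcium and then dock onto other proteins. S100a8 and S100a9 form calprotectin, the most abundant cytosolic protein of neutrophils, which also binds zinc and manganese and is released at sites of inflammation. Other members serve inside the cell, S100a10 with annexin A2 at the plasma membrane, S100a11 with annexin A1, and S100a4 with non-muscle myosin. S100a1 is known from heart and skeletal muscle and S100b from Schwann cells, chondrocytes and fat.

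All mice were C57BL/6 and carried a Wnt7b transgene at the R26 locus. The OE group (3 libraries) were described as homozygotes, with no allele named, and also carried a DMP1-Cre with 9.6 kb of Dmp1 regulatory sequence, a driver known to work in osteocytes and late osteoblasts. Littermates with the Wnt7b transgene alone made up the Ctrl group (3 libraries). The sources used here give neither age, sex nor the number of animals per library, and p-values here reflect only how far these libraries spread, which may be technical. Levels are in FPKM, fragment counts divided by transcript length and by the library's mapped fragments, so that genes can be compared per length.

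The femurs were labelled free of cartilage and marrow, yet neutrophil genes were among the most abundant in all 6 libraries, and Col2a1, the main cartilage collagen, measured 134 to 263 FPKM in OE, with the library labelled Ctrl 1 at 183, Ctrl 2 at 8.82 and Ctrl 3 at 13.8. Wnt7b (chromosome 15, 85535437 to 85582473, GRCm38) was measured at 2.49 (OE 1), 0.661 (OE 2) and 0.295 FPKM (OE 3), at 0.909 for the library labelled Ctrl 1, at 0.00833 for Ctrl 2, and was listed at 0 for Ctrl 3. For the targeted gene the library labelled Ctrl 1 lay inside the OE range, and the limma differences of the 10 S100 genes are given with and without it. OE 3 stood apart with 7.45% of its FPKM in haemoglobin genes, against 0.220% to 1.26% elsewhere. Absolute depth is unknown. Judged from the steps among low values, relative depth was 1 to 1.18, and FPKM totals ran from 596413 to 775942.

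The 10 genes spanned more than 4 orders of magnitude in level. S100a8 came first by mean FPKM, followed by S100a9, S100a11, S100a6, S100a10, S100a4, S100a1, S100a13, S100a16 and S100b. S100a8 was the most abundant gene of the whole table in every library, and S100a9 held rank 2 except in OE 3, where it held rank 3. The pair made up 96.2% to 97.1% of the FPKM of the 10 genes in each library, and the other 8 together held 0.284% to 0.508% of all FPKM. Between neighbours in that order, S100a10 and S100a4 did not differ beyond their spread, with a ratio of S100a4 to S100a10 between 0.860 and 1.12 across libraries. The same held for S100a1 and S100a13, and the other neighbours kept their order in every library.

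**Figure D1:**
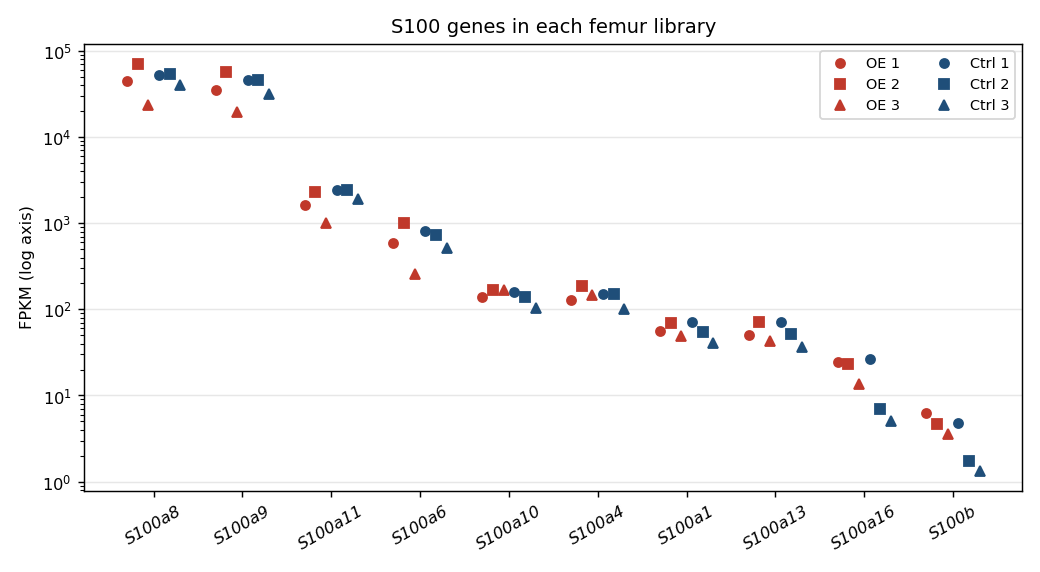
FPKM of the 10 S100 genes in each library on a log axis, ordered by mean level; red marks are OE and blue marks Ctrl libraries, with 1 symbol per replicate number. S100a8 and S100a9 lie at or above 19611 FPKM in every library, while S100a16 and S100b are the 2 genes whose Ctrl 2 and Ctrl 3 values lie below all other libraries.

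Most of these genes lie side by side on chromosome 3 (GRCm38). S100a1 (90511034 to 90514392, minus strand), S100a13 (90514435 to 90524581, plus), S100a16 (90537254 to 90543151, plus), S100a4 (90603771 to 90606045, plus), S100a6 (90612882 to 90624181, plus), S100a8 (90668978 to 90670035, plus) and S100a9 (90692632 to 90695721, minus) share a stretch of 184688 bases. S100a11 (93520488 to 93526287, plus) and S100a10 (93555080 to 93564643, plus) follow 2824766 bases further on, and S100b lies on chromosome 10 (76253853 to 76261159, plus). Genes of very different level lay side by side, and 5 S100 genes among the abundant ones stayed under 1 FPKM in all libraries. These were S100a14, at most 0.157 FPKM, S100a3, at most 0.781, S100a2, at most 0.479, S100a7a, at most 0.752, and S100a5. S100g on chromosome X and S100z on chromosome 13 were listed at 0 in all 6 libraries.

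**Figure D2:**
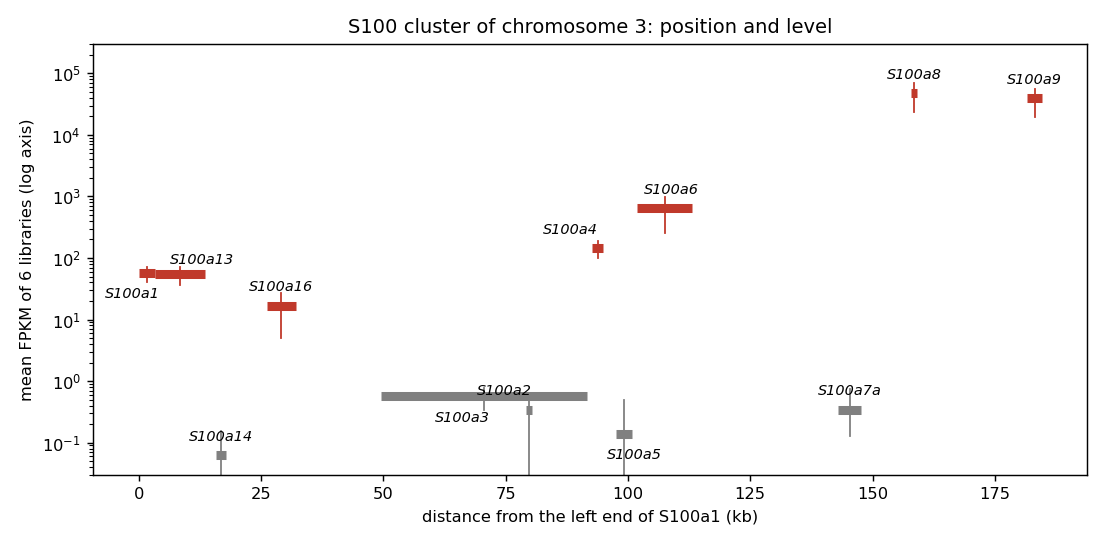
Position within the chromosome 3 cluster, as distance from the left end of S100a1 in kb, against mean FPKM of the 6 libraries on a log axis; bars span the gene, thin lines run from the lowest to the highest library (down to the axis where the lowest is listed at 0), red marks the 7 genes followed here and grey the 5 others. S100a8 and S100a9 stand far above the rest, with S100a6 next at a mean of 648 FPKM, while S100a7a beside them stays under 1 FPKM.

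None of the 10 genes differed between OE and Ctrl at an adjusted p of 0.05 when all 6 libraries were used. The test was limma on log2(FPKM + 1) with Benjamini-Hochberg adjustment over 12177 genes, and it called 0% of all genes (smallest adjusted p = 0.554). With no adjustment, p was under 0.05 for 8.2% of all genes and 0 of the 10, and limma without a variance trend likewise called 0 genes. The 10 differences had a median of 0.08 in log2, with 6 positive and 4 negative, beside a median of -0.04 over all genes tested. In 0 of the 10 did all OE libraries lie above all Ctrl libraries, and in 0 below, where 4.59% of all genes lay above and 8.97% below. In all 10 the library labelled Ctrl 1 reached at least the lowest OE value, an order whose share over all genes was not taken. Ctrl 2 did so too in all but S100a16 and S100b, so for the rest this order did not set the library labelled Ctrl 1 apart. Without the library labelled Ctrl 1, 2 of the 10 were called, S100a16 and S100b, both higher in OE. Over all genes this fit called 4.9%, with 4.25% higher and 0.649% lower. The same 2 genes were called by limma with array weights, which called 11.4% of all genes, and without both Ctrl 1 and OE 3, which also called 11.4%.

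The extremes of the 10 genes fell in a few libraries. The highest value lay in OE 2 for 5 of the 10 (S100a8, S100a9, S100a4, S100a6 and S100a13), beside 11.3% of all genes. It lay in the library labelled Ctrl 1 for 3 (S100a11, S100a16 and S100a1), beside 15.4%, in OE 1 for S100b, beside 19.2%, and in OE 3 for S100a10. The lowest value lay in Ctrl 3 for 6 of the 10, beside 15.9% of all genes, and in OE 3 for 4 (S100a8, S100a9, S100a6 and S100a11), beside 28.2%. Without the library labelled Ctrl 1, all OE values lay above both Ctrl values for 2 of the 10 and below for 0, beside 18.3% and 18.6% of all genes.

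**Figure D3:**
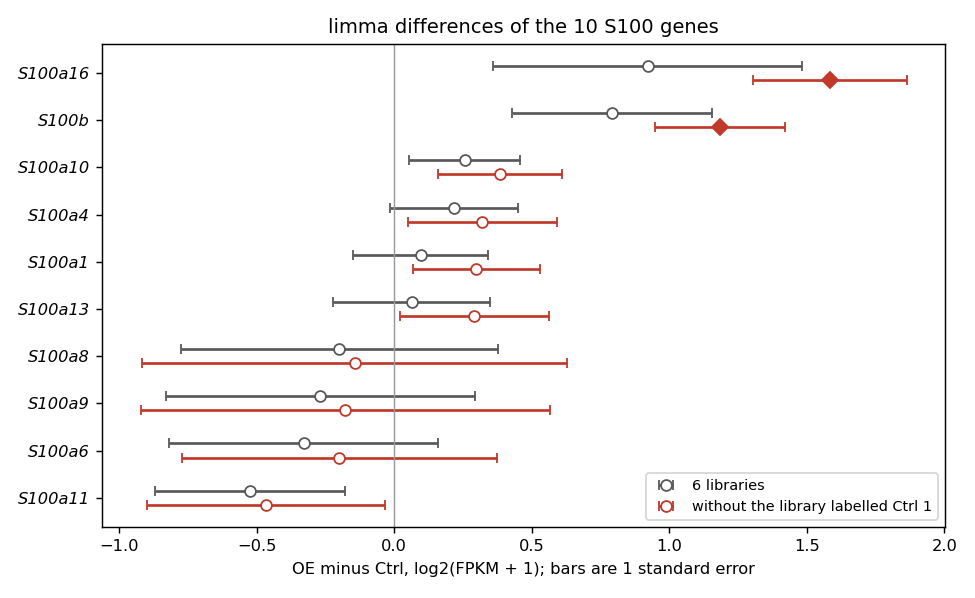
OE minus Ctrl difference of each S100 gene in log2(FPKM + 1) by limma, with bars of 1 standard error; grey marks use all 6 libraries and red marks leave out the library labelled Ctrl 1, and filled diamonds mark an adjusted p under 0.05 over all genes. S100a16 and S100b are the 2 filled marks, at 1.58 and 1.18.

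S100a8 and S100a9, the calprotectin pair, moved together from library to library, and their range over OE covered all Ctrl libraries. S100a8 measured 44604 (OE 1), 70049 (OE 2) and 23601 FPKM (OE 3), with the library labelled Ctrl 1 at 52148, Ctrl 2 at 53810.1 and Ctrl 3 at 39896. OE 2 was the highest and OE 3 the lowest of the 6, so the Ctrl libraries lay inside the OE range. S100a9 followed the same order at the top and bottom, and had 35707, 56574 and 19611 FPKM across OE 1 to OE 3, while the library labelled Ctrl 1 had 46582, Ctrl 2 had 46566 and Ctrl 3 had 31940.0. The limma difference was -0.20 (SE 0.58, adjusted p = 0.914) for S100a8 and -0.27 (SE 0.56, adjusted p = 0.874) for S100a9. These were -0.14 (adjusted p = 0.950) and -0.18 (adjusted p = 0.935) without the library labelled Ctrl 1. Both differences were positive, at 0.21 and 0.13, without OE 3, so their sign rested on that library. In bulk RNA such as this, a different number of cells of a type and a different amount of RNA per cell cannot be told apart.

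Within a library the ratio of S100a8 to S100a9 was nearly constant. It was 1.25 (OE 1), 1.24 (OE 2) and 1.20 (OE 3), with the library labelled Ctrl 1 at 1.12, Ctrl 2 at 1.16 and Ctrl 3 at 1.25, a range of 1.12-fold while S100a8 itself ranged 2.97-fold. The groups overlapped, at 1.23 ± 0.0239 in OE and 1.17 ± 0.0669 in Ctrl (SD, n = 3). Of the 45 pairs among the 10 genes, this pair had the most similar profile. Likeness was measured as the root mean square difference between log2 profiles centred on their mean over the 6 libraries, and it was 0.060 for S100a8 and S100a9. Among 6579 genes with a mean of at least 10 FPKM, S100a9 was the nearest gene to S100a8, and S100a8 the nearest to S100a9.

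The bases before the start of these genes are shown because the pair moved together. They were taken from RefSeq (GRCm38.p6), in which 9 of the 10 genes had 1 or more windows of 250 bases before the start, and are given 5′ to 3′ on the gene's own strand as far as no annotated transcript covers them. Capitals mark TTNNGNAA on either strand, the form of site bound by C/EBP factors, a family that drives granulocyte genes.
S100a8, chr3:90668821-90668977, plus strand: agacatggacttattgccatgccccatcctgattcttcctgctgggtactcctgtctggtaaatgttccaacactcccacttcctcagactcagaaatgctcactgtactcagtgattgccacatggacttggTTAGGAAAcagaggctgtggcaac
S100a9, chr3:90695722-90695971, minus strand: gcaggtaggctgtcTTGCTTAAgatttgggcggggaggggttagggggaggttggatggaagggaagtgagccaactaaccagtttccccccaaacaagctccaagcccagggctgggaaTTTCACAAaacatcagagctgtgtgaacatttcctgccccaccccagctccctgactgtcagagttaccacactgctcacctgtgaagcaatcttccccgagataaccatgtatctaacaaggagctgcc
The letters occurred 1 time before S100a8 and 2 times before S100a9, and 0 times in the windows of the other 7 genes. S100a6 and S100a11, which moved with the neutrophil genes, were among those 7. Of 32851 RefSeq windows of the same length 36.8% held them, so a match is common and is only a description of the letters. The window of S100a8 also held TATAAA 30 bases before its RefSeq start, which 12.4% of windows held. Other motifs were searched too, and not all set the pair apart. GAGGAA, the letters searched for the factor PU.1, occurred 2 times before S100a8 and 0 times before S100a9. They occurred 1 time before S100a11 and 1 time in 1 window of S100a16, and in 23.3% of all windows.

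The calprotectin genes, like some other S100 genes, stood higher relative to part of the other neutrophil genes in OE than in Ctrl. Their own levels overlapped between groups. The 20 neutrophil markers tested, listed apart from the S100 genes, had a median difference of -0.61 with 0 called, and their mean level was 8.76 to 10.05 in OE and 9.92 to 10.16 in Ctrl in log2(FPKM + 1). The ratio of S100a8 to Mpo, the myeloperoxidase of primary granules, came to 21.0, 24.1 and 18.0 across OE 1 to OE 3, to 14.5 for the library labelled Ctrl 1, to 13.7 for Ctrl 2 and to 11.8 for Ctrl 3. All OE ratios lay above all Ctrl ratios, the library labelled Ctrl 1 included. The ratio to Elane, the neutrophil elastase, behaved alike at 31.3, 33.1 and 25.3 in OE, and at 24.0, 21.3 and 21.2 in Ctrl with the library labelled Ctrl 1 first.

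Such a ratio does not depend on how libraries are scaled. For 10 of the 20 markers all OE ratios of S100a8 to the marker lay above all Ctrl ratios, and for 0 below, where the same ratio taken to each of 12154 other genes lay above in 1.39% and below in 0.601%. The 10 were Mpo, Elane, Prtn3, Ctsg, Ltf, Ngp, Lcn2, Ly6g, Cebpe and Ifitm6. They include serine proteases of primary granules (Elane, Prtn3, Ctsg) and proteins of the later secondary granules (Ltf, Ngp, Lcn2). For Camp, the cathelicidin of secondary granules, the groups overlapped, at 10.2, 9.62 and 6.48 in OE and 7.21, 8.75 and 9.96 in Ctrl. The same was true of Retnlg, at 16.9, 15.3 and 12.2 against 13.1, 12.9 and 12.7. S100a9 gave 8 of the 20, where its ratio to all genes lay above in 0.905% and below in 1.33%. The other 8 S100 genes gave between 2 (S100a11) and 16 (S100a4) of the 20 above and 0 below. S100a4 gave its 16 beside 20.1% of all genes, S100a10 gave 14 beside 23.9%, and S100b gave 13 beside 17.2%. S100a13 gave 10 beside 3.47%, S100a1 gave 9 beside 6.46%, and S100a6 gave 4 beside 0.378%. S100a16 gave 3 beside 2.05%, and S100a11 its 2 beside 0.296%. Higher ratios to these markers in OE were thus not particular to calprotectin. All 20 markers had a negative limma difference over 6 libraries. The ratios of S100a8 share their numerator and the markers share their cells, so the 10 are not separate observations. With 3 against 3 libraries no exact two-sided permutation p below 0.1 is possible. Without the library labelled Ctrl 1 the S100a8 count was 12 of 20 beside 2.89% of all genes, and without OE 3 it was 12 beside 25.1%. The contrast with all genes was thus smaller when OE 3 was left out.

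**Figure D4:**
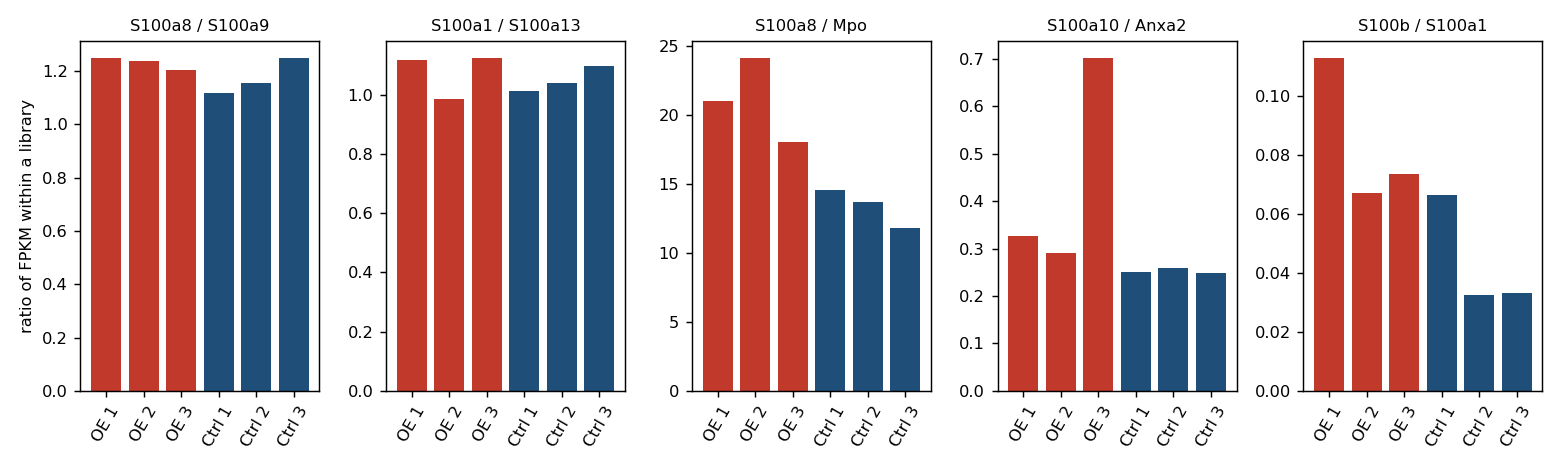
Ratios of FPKM within each library, with red bars for OE and blue for Ctrl and each axis starting at 0. S100a8 to S100a9 and S100a1 to S100a13 vary little, S100a8 to Mpo lies at 18.0 to 24.1 in OE and 11.8 to 14.5 in Ctrl, and S100a10 to Anxa2 stands apart in OE 3 at 0.702.

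The 6 genes listed as mesenchymal did not share a pattern. S100a11 and S100a6 moved with the neutrophil genes, S100a4 and S100a10 varied little, and S100a13 ran close to S100a1. S100a16 lay about equally near to the fibroblast and periosteum markers and to the osteoclast markers. The mean level of the 6 in log2(FPKM + 1) was 7.40 (OE 1), 7.82 (OE 2) and 6.99 (OE 3), with the library labelled Ctrl 1 at 7.74, Ctrl 2 at 7.31 and Ctrl 3 at 6.85, so the groups overlapped. Taken against the neutrophil pair, the mean level was lower by 7.81 ± 0.370 in OE and by 8.14 ± 0.250 in Ctrl (SD, n = 3), again with overlap.

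S100a11, a partner of annexin A1, came next in level after the calprotectin pair. It reached 1618 FPKM (OE 1), 2318 (OE 2) and 1014 (OE 3), compared with 2437 for the library labelled Ctrl 1, 2423 for Ctrl 2 and 1919 for Ctrl 3. OE 3 was the lowest and OE 1 the next, while OE 2 lay inside the Ctrl range. Its limma difference was -0.52 (SE 0.35, adjusted p = 0.594), the lowest of the 10, and -0.47 (adjusted p = 0.650) without the library labelled Ctrl 1. Its centred profile differed from that of the neutrophil markers by 0.083, less than those of S100a8 (0.216) and S100a9 (0.206), and from that of the fibroblast and periosteum markers by 0.971. Its ratio to S100a8 was 0.0331 to 0.0430 in OE and 0.0450 to 0.0481 in Ctrl, without overlap. Over 12154 other genes the ratio of S100a11 lay below in OE for 16% and above for 0.296%. A processed pseudogene, S100a11-ps, is annotated on chromosome 12, and no source used here says how reads shared with it were counted, so the level of S100a11 is uncertain to that extent.

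S100a6, or calcyclin, binds the ubiquitin ligase adaptor encoded by Cacybp and is abundant in fibroblasts. It had 593, 994 and 255 FPKM across OE 1 to OE 3, while the library labelled Ctrl 1 had 802, Ctrl 2 had 729.9 and Ctrl 3 had 512. The highest and lowest libraries were the same as for S100a8, and the range was wider, at 3.89-fold. The limma difference was -0.33 (SE 0.49, adjusted p = 0.815). It was -0.20 (adjusted p = 0.897) without the library labelled Ctrl 1 and 0.20 without OE 3. The neutrophil markers were the nearest marker list, at 0.263. Among 6579 genes, S100a9 ranked 7 and S100a8 ranked 12 by likeness to S100a6.

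S100a4 and S100a10 varied least among the mesenchymal genes. S100a4, a metastasis-associated binder of non-muscle myosin, measured 129 (OE 1), 188 (OE 2) and 146 FPKM (OE 3), with the library labelled Ctrl 1 at 151, Ctrl 2 at 149 and Ctrl 3 at 99.9. Only Ctrl 3 lay below the OE range, and the limma difference was 0.22 (SE 0.23, adjusted p = 0.732), or 0.32 (adjusted p = 0.620) without the library labelled Ctrl 1. A further annotated gene, Gm42674, overlaps S100a4 and S100a3 on the same strand. It had no row in the deposited values, so no split of reads between it and S100a4 can be seen here. S100a10, which needs no calcium and forms a stable complex with annexin A2, had 139, 169 and 169.7 FPKM across OE 1 to OE 3, while the library labelled Ctrl 1 had 158, Ctrl 2 had 141 and Ctrl 3 had 104. Its range of 1.63-fold was the smallest of the 10, and the limma difference was 0.26 (SE 0.20, adjusted p = 0.647), or 0.38 (adjusted p = 0.476) without the library labelled Ctrl 1. Neither had its lowest value in OE 3, where the neutrophil pair was lowest.

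S100a10 and its partner Anxa2 did not move in step. Anxa2 reached 425 FPKM (OE 1), 580.1 (OE 2) and 242 (OE 3), compared with 630 for the library labelled Ctrl 1, 543 for Ctrl 2 and 421 for Ctrl 3, with its minimum in OE 3. The ratio of S100a10 to Anxa2 was 0.327, 0.291 and 0.702 in OE and 0.251, 0.259 and 0.248 in Ctrl. All OE ratios were the higher ones, but the ratio of S100a10 to 23.9% of all other genes showed the same (1.04% the reverse), so this is not particular to Anxa2.

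**Figure D5:**
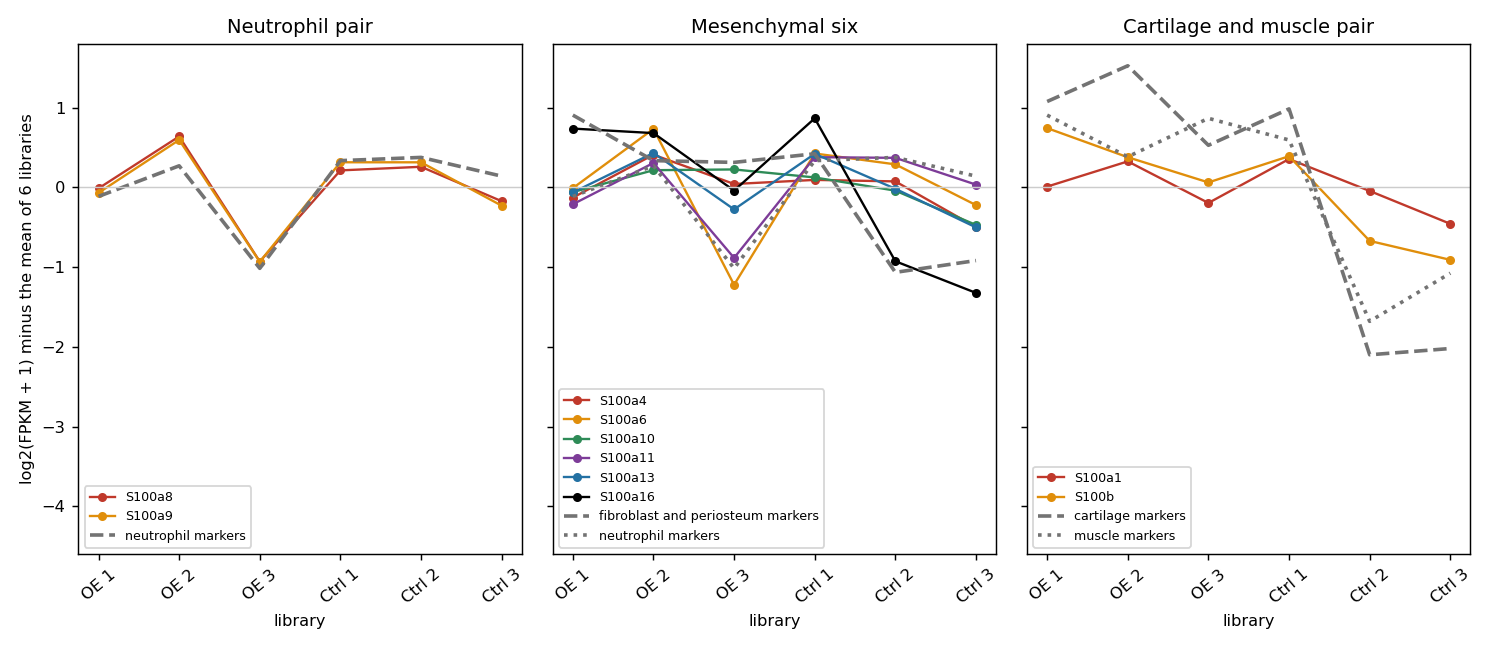
Values of log2(FPKM + 1) minus the mean of the 6 libraries for each S100 gene (solid lines) and for the mean level of marker lists (broken grey lines), in 3 panels by the list the genes were placed in; lines join libraries for reading only. S100a8, S100a9, S100a6 and S100a11 have their minimum in OE 3 with the neutrophil markers. S100a16 and S100b are low in Ctrl 2 and Ctrl 3 with the fibrous, cartilage and muscle markers. S100a1 is lowest in Ctrl 3, but its Ctrl 2 value lies above that of OE 3.

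S100a16 was the mesenchymal member with the widest difference. The gene encodes a broadly expressed S100 protein with a single working calcium loop. It measured 24.3 (OE 1), 23.3 (OE 2) and 13.8 FPKM (OE 3), with the library labelled Ctrl 1 at 26.6, Ctrl 2 at 6.98 and Ctrl 3 at 5.06. The library labelled Ctrl 1 was the highest of all, and OE 3, the lowest OE library, lay 1.97-fold above the higher of Ctrl 2 and Ctrl 3. With all 6 libraries the limma difference was 0.92 (SE 0.56, adjusted p = 0.579). Without the library labelled Ctrl 1 it was 1.58 (SE 0.28, adjusted p = 0.0312), with all 3 OE libraries above both Ctrl libraries, an order shown by 18.3% of all genes. Relative to S100a13, its neighbour in the cluster, S100a16 came to 0.482, 0.327 and 0.317 across OE 1 to OE 3, to 0.376 for the library labelled Ctrl 1, to 0.134 for Ctrl 2 and to 0.137 for Ctrl 3.

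S100a16 moved with tissue markers that set Ctrl 2 and Ctrl 3 apart from the rest. Its nearest list was the fibroblast and periosteum markers, at 0.330, followed by the osteoclast markers at 0.345. Without the library labelled Ctrl 1, limma called higher in OE 6 of 12 fibroblast and periosteum markers, 10 of 15 osteoblast and osteocyte markers, 13 of 15 cartilage markers, 9 of 14 muscle markers and 3 of 10 osteoclast markers. It called 0 of 10 endothelium markers and 0 of 20 neutrophil markers, beside 4.25% of all genes called higher and 0.649% lower. The summed FPKM of the 15 cartilage markers was 501 to 862 in OE and 43.1 to 721 in Ctrl, with Epyc listed at 0 in some libraries. The summed FPKM of the muscle markers was 1735 to 2233 in OE and 325 to 2036 in Ctrl, with no marker at 0. That of the fibroblast and periosteum markers was 1036 to 1677 in OE and 1008 to 1533 in Ctrl, sums that include Vim, at 453 FPKM in OE 3 and 846 in Ctrl 2. Without the library labelled Ctrl 1 the limma difference was positive for 9 of these 12 markers and negative for 3, Vim among them. The summed FPKM of the osteoblast and osteocyte markers was 12193 to 17701 in OE and 1082 to 9864 in Ctrl, sums that include Col1a1 and Col1a2, listed at 0 in some libraries. Over the 13 of these markers never at 0 the mean level in log2(FPKM + 1) was 6.94 to 8.07 in OE, 7.57 for the library labelled Ctrl 1, 4.47 for Ctrl 2 and 4.49 for Ctrl 3, so the groups overlapped through that library alone. The cartilage markers had the same split, at 4.03 to 5.03 in OE, 4.49 for the library labelled Ctrl 1, 1.40 for Ctrl 2 and 1.48 for Ctrl 3. The part of these tissues in the difference of S100a16 was not tested.

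S100a13 is needed for the export of FGF1 and interleukin 1 alpha, proteins without a signal peptide. It had 50.4, 71.4 and 43.3 FPKM across OE 1 to OE 3, while the library labelled Ctrl 1 had 70.8, Ctrl 2 had 52.0 and Ctrl 3 had 36.9. The groups overlapped, and the limma difference was 0.06 (SE 0.29, adjusted p = 0.950), or 0.29 (adjusted p = 0.652) without the library labelled Ctrl 1. S100a1 ran beside it and reached 56.3 FPKM (OE 1), 70.3 (OE 2) and 48.7 (OE 3), compared with 71.8 for the library labelled Ctrl 1, 54.1 for Ctrl 2 and 40.4 for Ctrl 3, with a limma difference of 0.10 (SE 0.24, adjusted p = 0.899). That difference was 0.30 (adjusted p = 0.589) without the library labelled Ctrl 1.

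The ratio of S100a1 to S100a13 was 1.12 (OE 1), 0.985 (OE 2) and 1.12 (OE 3), with the library labelled Ctrl 1 at 1.01, Ctrl 2 at 1.04 and Ctrl 3 at 1.10. It ranged 1.14-fold, and after S100a8 and S100a9 this was the most similar of the 45 pairs, at 0.071. Other genes were nearer: S100a1 ranked 5 by likeness to S100a13 among 6579 genes, after Hopx (0.045), Mydgf (0.052) and Commd9 (0.064) in the first 3 places. In the other direction, S100a13 ranked 19 by likeness to S100a1. The 2 genes lie head to head, read away from each other from starts 42 bases apart, and no source used here says whether counting used the strand. Their RefSeq promoter windows, from 250 bases before to 50 after each start, overlap by 204 bases. The stretch between the GENCODE starts is shown because it separates the 2 genes, with CG dinucleotides in capitals.
S100a1 to S100a13, chr3:90514393-90514434, plus strand: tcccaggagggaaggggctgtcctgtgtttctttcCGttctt
It holds 1 CG dinucleotide and 54.8% G and C.

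S100a1 and S100b, listed together for cartilage and muscle, did not move together. S100a1, known as a regulator of the muscle calcium channel encoded by Ryr1, stayed within 1.78-fold across libraries, while the mean level of the muscle markers was 6.13 to 6.65 in OE, with the library labelled Ctrl 1 at 6.34, Ctrl 2 at 4.07 and Ctrl 3 at 4.67. Ckm, the muscle creatine kinase, stood at 46.6 and 69.9 FPKM in Ctrl 2 and Ctrl 3 and at 240.4 to 290.1 in the other 4. The centred profile of S100a1 differed from the muscle markers by 0.917 and from the cartilage markers by more still, and was nearest to the endothelium markers, at 0.221, a list that itself varied little. S100a1 thus did not share the wide split of the muscle and cartilage markers between libraries. It is described here beside S100a13, although other genes lay nearer to it. The distance favours lists that vary little and cannot show which cells express a gene. Whether muscle or cartilage contributed to S100a1 was not tested.

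S100b was the least abundant of the 10 and the other gene called without the library labelled Ctrl 1. It measured 6.34 (OE 1), 4.70 (OE 2) and 3.58 FPKM (OE 3), with the library labelled Ctrl 1 at 4.75, Ctrl 2 at 1.75 and Ctrl 3 at 1.34. The lowest of the first 4 libraries lay 2.04-fold above the higher of the last pair. With all 6 libraries the limma difference was 0.79 (SE 0.36, adjusted p = 0.554), and without the library labelled Ctrl 1 it was 1.18 (SE 0.24, adjusted p = 0.0447), just under the threshold. The ratio of S100b to S100a1 was 0.113, 0.0669 and 0.0735 in OE and 0.0662, 0.0324 and 0.0330 in Ctrl, so all OE ratios were higher, as was true of the ratio of S100b to 17.2% of all other genes, with 0.757% the reverse.

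Markers of the cell types known for S100b gave no single match. Its nearest lists were the osteoclast markers, at 0.128, and the fibroblast and periosteum markers, at 0.203. The cartilage markers, at 0.938, differed between libraries far more than S100b did. Of 10 Schwann cell markers 5 passed the filter and 1 was called higher without the library labelled Ctrl 1, with a summed FPKM of 35.0 to 50.4 in OE and 28.4 to 52.7 in Ctrl. Sox10, Cdh19, Erbb3 and Gfra3 were under 1 FPKM in all 6 libraries. Of 9 adipocyte markers tested 1 was called higher in the same fit, which called 4.25% of all genes higher. Adipoq stood at 48.2 FPKM in OE 3 and 7.95 to 14.4 elsewhere. The part of nerve, fat and cartilage in the S100b difference was not tested.

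The receptors that sense S100 proteins outside the cell were all measured. By limma, 0 of these 9 were called with 6 libraries or without the library labelled Ctrl 1, beside 0% and 4.9% of all genes. Their median difference was 0.06, with 5 positive and 4 negative, beside -0.04 over all genes. Without the library labelled Ctrl 1 it was -0.01, with 3 positive and 6 negative, beside -0.06, so its sign rested on that library. Ager, which encodes the receptor RAGE, reached 4.67 FPKM (OE 1), 6.72 (OE 2) and 3.07 (OE 3), compared with 6.71 for the library labelled Ctrl 1, 6.32 for Ctrl 2 and 6.28 for Ctrl 3. OE 1 and OE 3 lay below all Ctrl libraries (limma difference -0.40, SE 0.24, adjusted p = 0.570; -0.38, adjusted p = 0.570, without the library labelled Ctrl 1). Tlr4, through which calprotectin signals, stood at 12.7, 10.7 and 5.83 FPKM across the OE libraries and 7.47, 7.47 and 11.7 across Ctrl, with overlap. Cd14, a coreceptor of Tlr4, was the receptor with the smallest p, and measured 11.6 (OE 1), 14.4 (OE 2) and 6.21 FPKM (OE 3), with the library labelled Ctrl 1 at 19.3, Ctrl 2 at 17.9 and Ctrl 3 at 15.7. All OE values lay below all Ctrl values, an order shown by 8.97% of all genes. The limma difference of -0.73 (SE 0.28) did not pass (adjusted p = 0.554), nor did that of -0.67 without the library labelled Ctrl 1 (adjusted p = 0.383). Ly96, the other Tlr4 coreceptor, stood at 5.15 to 8.21 FPKM in OE and 4.05 to 6.37 in Ctrl, and Cd33 at 42.6 to 81.6 and 49.9 to 107. Bsg, or basigin, a receptor of S100a9, was abundant at 192 to 290 FPKM in OE and 172 to 247 in Ctrl.

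Of 20 listed binding partners 18 passed the filter and 0 were called, with or without the library labelled Ctrl 1, beside 0% and 4.9% of all genes. The differences were balanced, with 9 positive and 9 negative and a median of 0.01, and with the same split and a median of 0.04 without the library labelled Ctrl 1. Anxa1, the partner of S100a11, had 1269, 1690 and 530 FPKM across OE 1 to OE 3, while the library labelled Ctrl 1 had 1669, Ctrl 2 had 1682 and Ctrl 3 had 1413, so that it too was lowest in OE 3. The ratio of S100a11 to Anxa1 was 1.28, 1.37 and 1.91 in OE and 1.46, 1.44 and 1.36 in Ctrl. Anxa11 lay below all Ctrl values in OE, as did 8.97% of all genes, at 72.6 to 161 FPKM against 168 to 198 (limma difference -0.65, SE 0.30, adjusted p = 0.554). Fgf1, exported with S100a13, lay above all Ctrl values, as did 4.59% of all genes, at 1.88 to 3.62 FPKM against 1.36 to 1.84 (limma difference 0.50, SE 0.21, adjusted p = 0.554). Il1a, the other cargo of S100a13, stood at 0.480 to 2.49 FPKM in OE and 0.610 to 2.36 in Ctrl.

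For the other 5 named partners the groups overlapped over 6 libraries, but for 3 of them (Ahnak, Cacybp and Ppfibp1) only through the library labelled Ctrl 1. Without it all OE values lay above both Ctrl values for these 3, an order shown by 18.3% of all genes. Ahnak, a scaffold held by S100a10 and annexin A2, stood at 34.4 to 37.9 FPKM in OE, against 40.6 for the library labelled Ctrl 1, 27.4 for Ctrl 2 and 24.7 for Ctrl 3. Cacybp stood at 38.1 to 46.6 FPKM in OE, against 44.9, 37.6 and 32.9 in the same order. Ppfibp1, which encodes the S100a4 partner liprin beta 1, stood at 7.35 to 14.1 FPKM in OE, against 7.37, 4.39 and 5.51. Myh9, the non-muscle myosin bound by S100a4, stood at 258 to 372 FPKM in OE and 369 to 396 in Ctrl, and Ryr1 at 2.95 to 6.00 and 1.60 to 3.72, and both overlapped also without that library. The limma adjusted p-values of these 5 lay between 0.554 and 0.831 over 6 libraries and between 0.194 and 0.679 without the library labelled Ctrl 1.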

How the data were processed

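Total RNA was sequenced with paired reads from 3 OE and 3 Ctrl femur libraries, and the titles gave each library its group and number. The authors deposited gene values in FPKM, per the file headers, with TopHat2, Cufflinks, DESeq and mm10 named in the submitters' processing notes. The sources used here state neither version nor role of these tools. Of 22824 rows, 21606 carry an Ensembl identifier and 21172 matched a symbol in GENCODE M21 (GRCm38). FPKM is relative within a library, so abundant genes lower the rest.

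The planned design used limma if the files held FPKM. log2(FPKM + 1) was fitted with limma 3.58.1 in R 4.3.3 (eBayes with trend), for genes that reached 1 FPKM in 3 or more libraries. Differences on that scale understate changes of low genes. Calls used a Benjamini-Hochberg adjusted p under 0.05. The step was run on simulated data with the same independent noise in every gene and library. That checks the working of the step and not its power or error with these libraries. List levels are means of log2(FPKM + 1) over tested members never listed at 0. Tables and figures were made in Python 3.11.15 (pandas 2.3.3, numpy 2.4.6, matplotlib 3.10.9). Promoter windows came from RefSeq.

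Named genes were the 10 S100 genes, every other S100 gene with a row, receptors and partners with a known S100 role, the 4 smallest p of the receptor, partner and EF-hand lists, the first 2 tested of each marker list, and the 3 nearest genes by likeness. Of the marker list genes under this rule only some are named, and the others are not reported here. The genes and lists were chosen with earlier results of these data known. Ratios, marker list distances and motifs were chosen after values were seen, as were Camp, Retnlg, Sox10 and the other neutrophil markers named beside ratios. Replicate numbers were not taken to pair the libraries, as no source used here says so, and the check is given with the alternatives.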

Additional observations from a re-analysis of the deposited data

How the results depend on the processing

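Of 255 alternative values, 228 kept direction and side of the threshold or stayed within the replicate spread. With all 6 libraries 0 genes were called by limma (999 at an unadjusted p under 0.05), and leaving out single libraries gave 0 to 597 genes, and 0 to 2 of the S100 genes, with calls only without the library labelled Ctrl 1. Array weights called 1394 genes, omission of both Ctrl 1 and OE 3 called 1388, and trimmed-mean scaling without Ctrl 1, added after seeing the data, called 608. Each of these 3 settings called 2 of the 10 S100 genes, S100a16 and S100b. Single omissions moved S100a16 between 0.49 and 1.58 and S100b between 0.53 and 1.18. They moved S100a8 between -0.57 and 0.21, S100a9 between -0.63 and 0.13, S100a6 between -0.78 and 0.20, S100a13 between -0.17 and 0.29, and S100a1 between -0.11 and 0.30. These 5 changed sign without a call, S100a8, S100a9 and S100a6 without OE 3, S100a13 and S100a1 without OE 2 or Ctrl 3. Without the libraries labelled Ctrl 1 and OE 3, S100a8 was 0.27, S100a9 0.22 and S100a6 0.33, and the mean level of S100a1 and S100b differed by 0.89 in place of 0.44. The causes were not tested. Same-numbered OE and Ctrl libraries had correlations of their deviations of 0.443, 0.0866 and 0.312, and not every library correlated best with its own number. With the replicate number as a block, 0 genes were called and S100b was 0.79 (adjusted p = 0.210 by limma). The ratio of S100a8 to the marker was higher in OE in all 3 same-numbered pairs for 14 of 20 neutrophil markers. No share over all genes was taken for these pairs, and whether the numbers pair the libraries is not settled. That count is thus only a description. Without the libraries labelled Ctrl 1 and OE 3, all OE ratios lay above all Ctrl ratios for 14 of 20, beside 37.8% of all genes. Scaling, pseudocount, filter and trend changed no call and no direction of the 10 genes; the filter of 5 FPKM left 9 of them. Depth limits the genes under 1 FPKM, which were not tested.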

Other observations

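Other EF-hand calcium sensors were read beside the S100 genes. Of 15 listed, 12 passed the filter, 0 were called with 6 libraries, and 4 were called higher in OE by limma without the library labelled Ctrl 1, a fit that called 4.25% of all genes higher. The 4 encode proteins of muscle. Pvalb, the parvalbumin of fast fibres, reached 163 FPKM (OE 1), 158 (OE 2) and 202 (OE 3), compared with 189 for the library labelled Ctrl 1, 16.4 for Ctrl 2 and 20.6 for Ctrl 3 (difference without Ctrl 1 of 3.17). Tnnc2, the fast troponin C, ran from 308 to 363 FPKM in OE, with 364 for the library labelled Ctrl 1, 48.8 for Ctrl 2 and 63.5 for Ctrl 3 (2.58), and Casq1, a calcium store of muscle, followed them (2.70). Tnnc1, the slow and cardiac troponin C, had no overlap between groups, at 20.6, 11.6 and 14.5 FPKM against 9.38, 5.47 and 4.84, with a difference of 1.14 over 6 libraries (adjusted p = 0.554). Capns1, the small subunit of calpain, stood at 158 to 240.3 FPKM in OE and 240.3 to 322 in Ctrl.

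The genes nearest to each S100 gene over the 6 libraries, by the same root mean square difference among genes with a mean of at least 10 FPKM, differed between members. Beside S100a16 they were Rhoc (0.069), Metrnl (0.072) and Myo1e (0.137), and beside S100b Tspan3 (0.066), Sdc1 (0.094) and Rcn1 (0.096). S100a11 lay nearest to Pgk1 (0.039), Armc7 (0.046) and Arhgdib (0.050), and S100a6 to Gm5483 (0.085), Mrgpra2b (0.109) and Prom1 (0.113). S100a4 lay nearest to Atp5l (0.019), Chchd2 (0.037) and Rbx1 (0.041), and S100a10 to Ccdc107 (0.033), Prdx4 (0.047) and Sdhaf4 (0.054). After S100a9, S100a8 lay nearest to Mgl2 (0.092) and Rpl35a (0.103), and after S100a8, S100a9 lay nearest to Mgl2 (0.070) and Ifitm3 (0.094). S100a1 lay nearest to Atp6v1f (0.032), Cnpy2 (0.046) and 1700021F05Rik (0.048). With 6 libraries and many genes, close profiles are common, and these are descriptions.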
